A study of Mus musculus with 16 samples.

Results

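Death receptors are members of the TNF receptor superfamily that carry a death domain. When a ligand binds, the adaptors Fadd and Tradd and the kinase Ripk1 gather at the receptor, and caspase-8 is activated on Fadd. Cflar (c-FLIP) is the inhibitor that competes with caspase-8 for Fadd, and Bid is the caspase-8 substrate that carries the signal to mitochondria. In neurons these receptors are best known for their part in cell loss after ischemia and injury, while the same receptors can also signal through NF-κB.

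The genes described are the 4 receptors *Fas*, *Tnfrsf10b*, *Tnfrsf1a* and *Tnfrsf12a*, the adaptors *Fadd* and *Tradd*, the kinase *Ripk1*, *Casp8*, *Cflar* and *Bid*, which are 10 of the 53679 gene symbols in the table and 45 of its 135202 isoforms. They were chosen by symbol, with earlier results of these data known. The study had already reported *Fas*, *Tnfrsf10b* and *Casp8* as higher after oxygen-glucose deprivation in these cultures. Shares of all genes given below are thus not a test of a set chosen blind to the values. The FPKM (fragments per kilobase of isoform, scaled to the mapped reads) of a gene's isoforms were summed. RNA-seq was performed on primary cortical neurons of wt mice, taken at embryonic day 15. CONTROL-VEH and CONTROL-TIA were sham cultures given vehicle (the labels call these untreated) or 10 μM tianeptine (TIA, an atypical antidepressant) at 8 days in vitro (DIV), and OGD-VEH and OGD-TIA were exposed to oxygen-glucose deprivation (OGD), an in vitro model of ischemia, for 3 h at DIV 9, 24 h after the same pretreatments. RNA was taken at 6 h of reoxygenation from 4 cultures per group, numbered 1 to 16 across the groups, which the study calls biological replicates.

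Single cultures stood at the edge of their group for many of the 10 genes. In CONTROL-VEH, culture 4 was the lowest for 7 of them. In OGD-VEH, culture 9 was the lowest for 7 of the 10 genes and culture 12 the highest for 6, and in OGD-TIA culture 16 was the highest for 7. Marker genes of the cell types also moved with OGD. The summed FPKM of 8 neuronal markers was 2134 to 2795 in CONTROL-VEH, 2226 to 2387 in CONTROL-TIA, 1075 to 2008 in OGD-VEH and 1400 to 2282 in OGD-TIA. For 7 oligodendrocyte lineage markers the sums in the same order were 108 to 122, 96.4 to 115, 136 to 455 and 125 to 288. Of the 6 tested in OGD-VEH vs. CONTROL-VEH, *Sox10*, *Olig2* and *Cspg4* were called higher. *Mbp*, of the same list, was lower there (log2 fold change -0.88, adjusted p = 0.0493 in limma) and was not called. The sums of 7 astrocyte markers in the same order were 723 to 1545, 617 to 791, 983 to 2469 and 729 to 1883. The sum of 8 microglial markers was low in all groups (2.55 to 5.88, 2.60 to 5.46, 10.9 to 15.6 and 4.41 to 11.5). Of the 8 genes, 6 were under a mean of 0.5 FPKM, and *Cx3cr1* was listed at 0 in 12 of 16 cultures. *Cd68*, a lysosomal protein of phagocytes, was called in OGD-VEH vs. CONTROL-VEH (2.34). The other microglial gene tested there went the other way, with a negative log2 fold change, and was not called. The median log2 fold change of the 2 was 0.97. Sums of 5 endothelial markers (0.398 to 0.705 over all cultures) and of 7 fibroblast and mural markers (7.02 to 18.1) were no higher in OGD-VEH than in the controls. The part of these shifts in the values of the 10 genes was not tested, and in these bulk samples fewer cells of a type and less RNA per cell cannot be told apart.

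Upstream sequences are shown for *Fas* and *Tnfrsf12a*, receptors that rose with OGD and had motif matches in the 250 bases before the RefSeq start. Capitals mark matches on either strand to the AP-1 motif TGANTCA, the hypoxia response element core ACGTG or the GC box GGGCGG. Both are from the GRCm38.p6 build and are written 5′ to 3′ on the strand of the gene; *Fas* lies on the plus strand at chr19:34290409-34290658 and *Tnfrsf12a* on the minus strand at chr17:23677450-23677699, where the last bases lie inside the gene as GENCODE M21 annotates it.
Fas: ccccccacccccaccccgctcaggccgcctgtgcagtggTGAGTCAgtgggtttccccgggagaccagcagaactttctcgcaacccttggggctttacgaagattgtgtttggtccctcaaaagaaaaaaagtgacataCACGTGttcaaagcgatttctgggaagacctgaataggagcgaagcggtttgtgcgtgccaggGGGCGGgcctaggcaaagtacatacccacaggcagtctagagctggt
Tnfrsf12a: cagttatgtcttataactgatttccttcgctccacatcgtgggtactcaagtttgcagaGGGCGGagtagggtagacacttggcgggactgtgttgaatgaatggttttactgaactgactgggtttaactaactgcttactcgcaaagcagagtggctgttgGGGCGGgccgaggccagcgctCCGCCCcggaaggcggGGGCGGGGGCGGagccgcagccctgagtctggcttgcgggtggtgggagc

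A RefSeq window was found for 8 of the 10 genes, with 9 windows in all because *Ripk1* has 2 starts; *Tnfrsf10b* and *Tradd* had none. The AP-1 motif was found in 1 of the 9 windows, that of *Fas*, against 6.75% of 32851 mouse windows. The hypoxia response element core was found in 2 of them, *Fas* and *Fadd*, against 16.6%. In the *Fas* window the letters CACGTG give a match on each strand, 105 to 110 bases before the start, and these 2 matches overlap. GC boxes were found in 6 of the 9 windows, against 32.7% of all windows, and 5 of the matches lie in the *Tnfrsf12a* window. No window of the 10 genes matched the NF-κB motif (3.90% of all windows) or the p53 motif of 10 letters (7.13%), which says only that these letters are not in the 250 bases searched. The motifs were chosen after results of these data were known, and a match is not evidence of binding.

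In the unstressed cultures the 10 genes spanned a wide range of levels. In CONTROL-VEH, *Bid* had the highest mean (16.02 ± 3.70 FPKM, SD, n = 4), followed by *Cflar* (10.8 ± 3.34), *Tradd* (9.60 ± 0.373), *Tnfrsf1a* (7.34 ± 2.61), *Tnfrsf12a* (6.00 ± 3.32), *Ripk1* (2.68 ± 0.912), *Fadd* (1.38 ± 0.185), *Tnfrsf10b* (0.814 ± 0.233), *Fas* (0.541 ± 0.269) and *Casp8* (0.171 ± 0.136). Among neighbours in this order, only *Fadd* and *Tnfrsf10b*, and *Fas* and *Casp8*, did not overlap between cultures. The levels are sums over isoforms, and 55% of the *Tradd* sum came from *Tradd-204*, a retained intron transcript of 610 bases. The coding *Tradd-201* had 3.81 ± 0.627 FPKM, under the 5.04 ± 0.811 FPKM of the coding *Tnfrsf1a-201*. *Casp8* and *Fas* rest on few reads. By a rough estimate of the reads behind each value, *Casp8* had 0 to 54 reads per culture (median 13) and *Fas* 11 to 263 (median 25), against 465 to 872 for *Bid*.

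**Figure D1:**
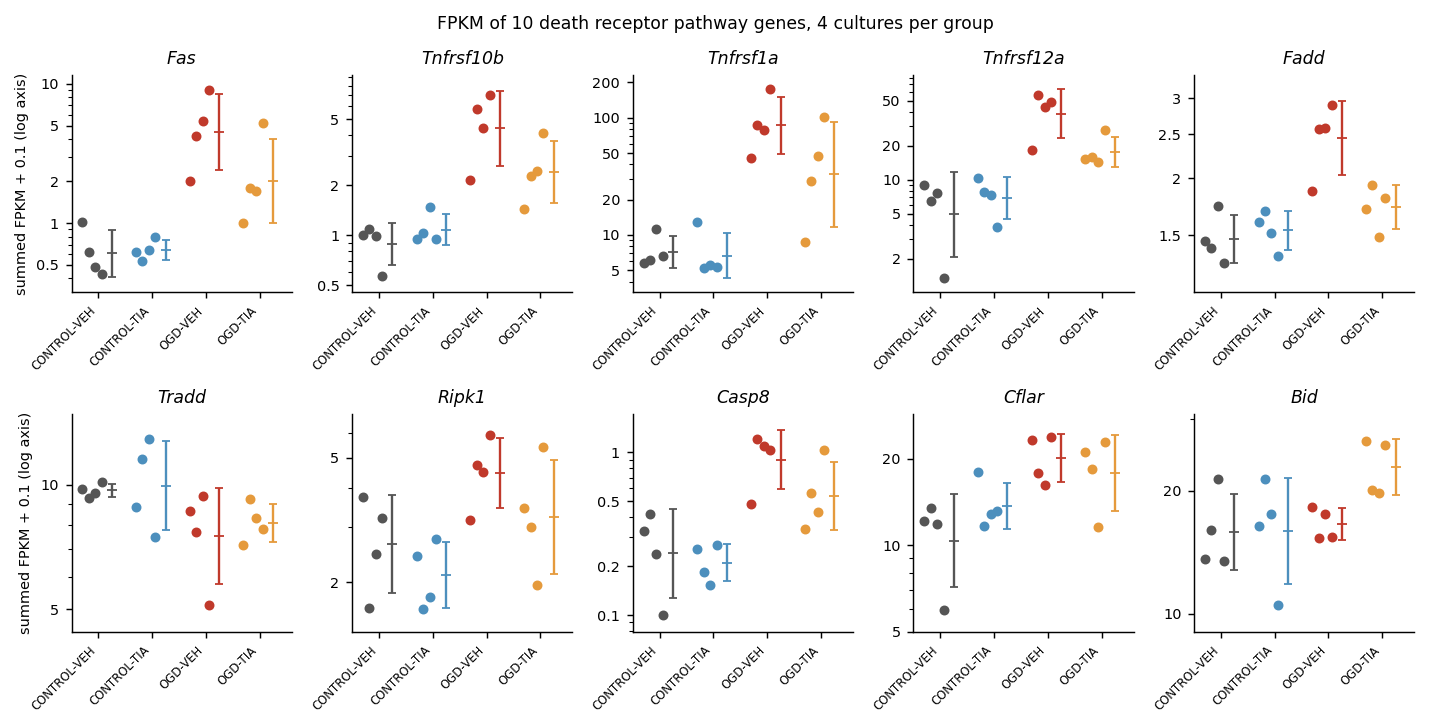
Summed FPKM plus 0.1 (log axis) of the 10 genes in each culture, with 4 points per group and, beside them, the mean and SD on the log scale. All 4 receptors sit higher in OGD-VEH than in CONTROL-VEH without overlap, while *Tradd* and *Bid* overlap.

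The first comparison asked which of these genes change with OGD in the absence of drug. After OGD with vehicle the 4 receptors rose, by 2.32 to 3.59 on the log2 scale, and no other member of the group passed the test. In limma (linear model with empirical Bayes on log2 of FPKM plus 0.1), 4 of the 10 genes were called, meaning a Benjamini-Hochberg adjusted p of 0.05 or less with a change of 1 or more on the log2 scale, all higher, against 4.09% of 16346 genes tested (2.40% higher). The 4 OGD-VEH cultures did not overlap with the 4 CONTROL-VEH cultures for 7 of the 10 genes, all higher, against 12.7% of all genes. An unadjusted p under 0.05 was found for 8 of the 10, all higher, against 20.2% of all genes. *Casp8* is in both of these counts. It reached the minimum mean of 0.5 FPKM for testing only through OGD-VEH, where it was high, so it adds no support to them. The median log2 fold change of the 10 genes was 1.43, and that of all genes tested was 0.10.

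*Fas* is the receptor of Fas ligand and recruits Fadd directly. Its values in CONTROL-VEH cultures 1 to 4 were 0.925, 0.522, 0.386 and 0.330 FPKM, and in OGD-VEH cultures 9 to 12 they were 1.90, 4.12, 5.32 and 8.98 FPKM. Each OGD-VEH culture was above every CONTROL-VEH culture, and culture 12 was highest. The group means were 0.541 ± 0.269 and 5.08 ± 2.96 FPKM, a ratio of 9.39, and the log2 fold change was 2.90 (SE 0.48, adjusted p = 0.0335).

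*Tnfrsf10b* encodes the mouse receptor of TRAIL. It was measured at 0.900, 0.994, 0.890 and 0.471 FPKM in CONTROL-VEH, against 2.04, 5.67, 4.33 and 6.94 in OGD-VEH, again without overlap. The log2 fold change was 2.32 (SE 0.39, adjusted p = 0.0336).

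*Tnfrsf12a* encodes the receptor of the cytokine TWEAK. This receptor has no death domain, so it is not a death receptor by the definition above. Its values were 8.87, 6.38, 7.49 and 1.25 FPKM in CONTROL-VEH against 18.2, 56.5, 43.6 and 49.0 in OGD-VEH. Culture 4 was far below the other controls and culture 9 below the other OGD-VEH cultures, yet the groups did not overlap. The log2 fold change was 2.97 (SE 0.62, adjusted p = 0.0371), and without CONTROL-VEH 4 it was 2.34.

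*Tnfrsf1a* encodes TNF receptor 1, which binds Tradd and, through it, Ripk1 and Fadd. Its summed values were 5.69, 6.00, 11.2 and 6.46 FPKM in CONTROL-VEH against 45.3, 86.6, 78.7 and 176 in OGD-VEH. This was the largest log2 fold change among the 10 genes in this comparison (3.59, SE 0.40, adjusted p = 0.0193), but its size depends on a short isoform. *Tnfrsf1a-203* is an annotated coding transcript of 390 bases and 65 codons, and *Tnfrsf1a-201*, with 2156 bases and 454 codons, is the longest coding one, called full-length here. The short isoform was listed at 0.006, 0.981, 5.68 and 0 FPKM in CONTROL-VEH, against 35.3, 49.9, 56.1 and 110 in OGD-VEH, where it made up 65.0% of the summed FPKM against 22.7% in CONTROL-VEH.

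The full-length isoform *Tnfrsf1a-201* was measured at 5.68, 5.02, 5.56 and 3.90 FPKM in CONTROL-VEH, against 7.82, 14.9, 15.3 and 23.1 in OGD-VEH. It was higher in all 4 OGD-VEH cultures, with a log2 fold change of 1.50 (SE 0.32) and an adjusted p of 0.126 over 53087 isoforms, of which 0.141% were called. When each isoform was weighted by its length, so that a gene's value follows its estimated reads, the fitted log2 fold change of *Tnfrsf1a* was 2.41 (SE 0.35, adjusted p = 0.0256).

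**Figure D2:**
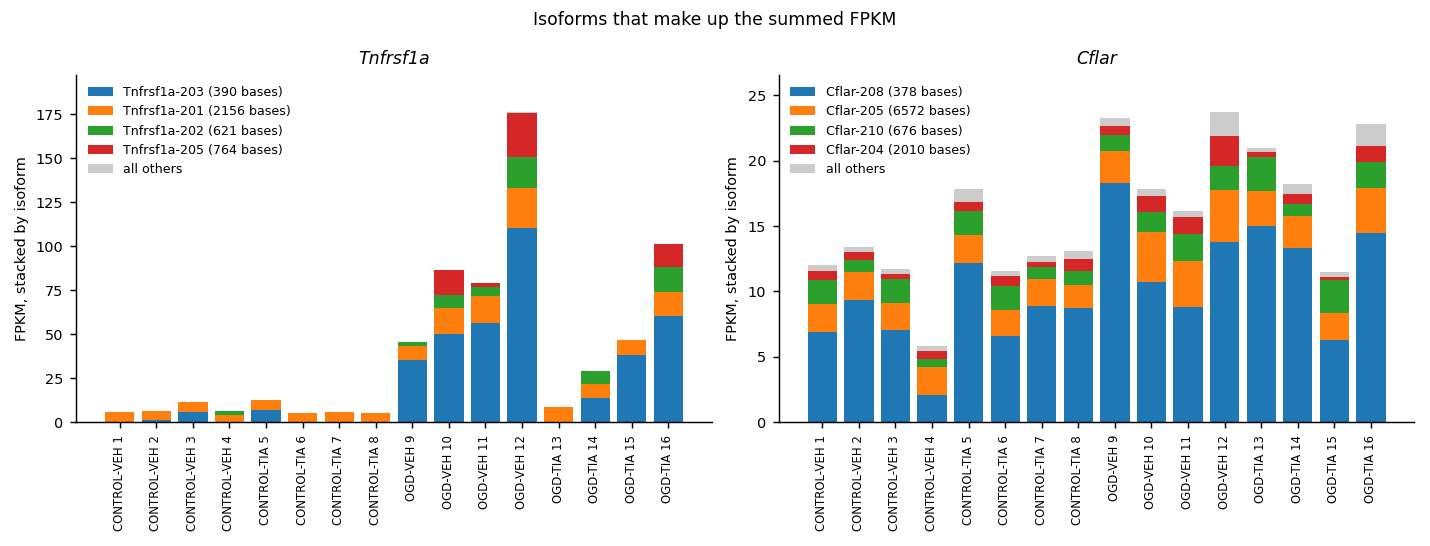
FPKM of the isoforms of *Tnfrsf1a* and *Cflar* stacked for each of the 16 cultures, with isoforms under a mean of 0.5 FPKM pooled as all others. The 390-base *Tnfrsf1a-203* makes up most of the *Tnfrsf1a* sum in OGD-VEH 9 to 12, and the 378-base *Cflar-208* most of the *Cflar* sum in all cultures but CONTROL-VEH 4.

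Among the adaptors and the kinase, *Fadd* and *Ripk1* were higher in mean and *Tradd* lower after OGD with vehicle, but none passed the test. *Fadd*, the adaptor shared by the death receptors and the only one of the 10 genes with a single isoform, had 1.36, 1.31, 1.64 and 1.21 FPKM in CONTROL-VEH against 1.78, 2.46, 2.48 and 2.80 in OGD-VEH. The groups did not overlap, and the log2 fold change was 0.74 (SE 0.21, adjusted p = 0.0561). *Ripk1*, the kinase that turns TNF receptor signaling toward survival or death, had 3.65, 1.56, 2.37 and 3.13 FPKM in CONTROL-VEH against 3.07, 4.65, 4.40 and 5.80 in OGD-VEH, which overlap (log2 fold change 0.75, adjusted p = 0.111). *Tradd* had 9.70, 9.19, 9.44 and 10.1 FPKM in CONTROL-VEH against 8.55, 7.58, 9.31 and 5.04 in OGD-VEH (log2 fold change -0.36, adjusted p = 0.211). It was the only one of the 10 genes with a lower mean after OGD with vehicle.

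*Casp8*, the initiator caspase of the pathway, had the lowest level of the 10 genes. Its values were 0.229, 0.318, 0.137 and 0 FPKM in CONTROL-VEH against 0.383, 1.11, 1.001 and 0.928 in OGD-VEH. The groups did not overlap, the ratio of the means was 5.00, and the log2 fold change of 1.92 (SE 0.55) had an adjusted p of 0.0580. It was called, with an adjusted p of 0.0226 to 0.0398 where the log2 fold change was 1.92 to 2.22, when all 16 cultures were fitted together, when isoforms were weighted by length and when OGD-VEH 9 was left out, and with array quality weights (adjusted p = 0.00911). *Casp8* passed the minimum of 0.5 FPKM here, with a mean of 0.513 over the 8 cultures, only through the OGD-VEH group where it was high, so these calls add no support, and without a filter its adjusted p was 0.102. With length weighting 6.56% of all genes were called, and with array quality weights 11.8%.

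*Cflar*, which lies 36.5 kb from *Casp8* on chromosome 1, had 12.02, 13.4, 11.7 and 5.86 FPKM in CONTROL-VEH against 23.2, 17.8, 16.2 and 23.8 in OGD-VEH. The groups did not overlap (log2 fold change 0.95, SE 0.27, adjusted p = 0.0575). Most of the sum came from *Cflar-208*, a processed transcript of 378 bases that codes for no protein. The coding isoform of 481 codons, *Cflar-205*, had a mean of 2.13 ± 0.0419 FPKM in CONTROL-VEH against 3.47 ± 0.673 in OGD-VEH. The ratio of the mean of *Cflar-205* to that of *Casp8* was 12.4 in CONTROL-VEH and 4.05 in OGD-VEH; with control means of *Casp8* this low the ratio is imprecise.

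*Bid* had 13.5, 15.9, 21.3 and 13.3 FPKM in CONTROL-VEH against 18.1, 15.2, 17.4 and 15.3 in OGD-VEH, with a log2 fold change of 0.07 (95% interval -0.32 to 0.45, adjusted p = 0.808). Its isoforms differed. The coding isoform *Bid-201* of 195 codons had means of 9.83 ± 1.105 and 12.7 ± 0.579 FPKM, while *Bid-205*, a retained intron transcript of 563 bases, had 4.99 ± 3.12 and 2.36 ± 1.80 FPKM. Length weighting of the isoforms gave a log2 fold change of 0.30 for *Bid* (adjusted p = 0.0842).

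The calls in OGD-VEH vs. CONTROL-VEH changed with the cultures included. None of the 10 genes was called without CONTROL-VEH 1, 2, 3 or 4 or without OGD-VEH 10 or 11, and 1, *Tnfrsf1a*, was called without OGD-VEH 12, although the log2 fold changes of the 4 receptors kept between 2.10 and 3.89 when any 1 culture was left out. The adjusted p of the 4 receptors then reached at most 0.111, and the number of genes called in the whole table fell from 668 to between 1 and 71. Without OGD-VEH 9, 5 of the 10 genes and 2186 genes in all were called.

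The same question was then asked of the cultures pretreated with TIA. After OGD the 4 receptors and *Casp8* had higher means in OGD-TIA than in CONTROL-TIA, with log2 fold changes of 1.15 to 2.31. However, limma called none of the 10 genes and 0 of the 16242 genes tested (0%). The study's DESeq2 test at the same thresholds did report *Fas*, *Tnfrsf10b* and *Casp8* as higher here, with smaller changes than in the VEH arm. The lack of calls therefore holds for limma on FPKM only. An unadjusted p under 0.05 was found for 6 of the 10 genes, all higher, against 11.6% of all genes. Of these 6, *Casp8* was read from the fit without a filter. In either direction 3174 genes had an unadjusted p under 0.05. With array quality weights 80 genes were called in this comparison, and with isoforms weighted by length 62, none of them among the 10.

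*Fas* had 0.514, 0.433, 0.537 and 0.693 FPKM in CONTROL-TIA cultures 5 to 8 and 0.901, 1.68, 1.60 and 5.13 FPKM in OGD-TIA cultures 13 to 16 (log2 fold change 1.65, SE 0.46, adjusted p = 0.147). *Tnfrsf12a* had 10.3, 7.71, 7.19 and 3.68 FPKM in CONTROL-TIA and 15.1, 15.8, 14.2 and 27.8 FPKM in OGD-TIA (log2 fold change 1.36, adjusted p = 0.125). *Casp8* had 0.156, 0.0850, 0.0540 and 0.168 FPKM in CONTROL-TIA and 0.236, 0.466, 0.329 and 0.939 FPKM in OGD-TIA (log2 fold change 1.36, adjusted p = 0.251 in the fit without a filter). These 3 genes did not overlap between the groups, against 9.51% of all genes that were higher without overlap. With isoforms weighted by length 6 of the 10 genes were higher without overlap, *Tnfrsf10b*, *Tnfrsf1a* and *Bid* being the others, while in the VEH arm the number was 7 on either scale. The share of all genes without overlap was not computed with length weighting, so the 6 cannot be set against the 9.51%.

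*Tnfrsf10b* had 0.853, 0.931, 1.38 and 0.845 FPKM in CONTROL-TIA and 1.34, 2.19, 2.33 and 4.07 FPKM in OGD-TIA, and only culture 13 fell within the control range (log2 fold change 1.15, adjusted p = 0.147). *Tnfrsf1a* had 12.7, 5.16, 5.45 and 5.24 FPKM in CONTROL-TIA and 8.60, 28.8, 46.6 and 101 FPKM in OGD-TIA (log2 fold change 2.31, SE 0.69, adjusted p = 0.157). Here too the short isoform set the spread. *Tnfrsf1a-203* was listed at 0.002, 13.7, 38.1 and 60.02 FPKM in OGD-TIA, whereas *Tnfrsf1a-201* had 8.56, 7.89, 8.54 and 13.96 FPKM, each above the CONTROL-TIA range of 5.16 to 6.04 FPKM.

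The other genes moved less in the TIA arm. *Ripk1* had 2.33, 1.55, 1.70 and 2.66 FPKM in CONTROL-TIA and 3.35, 2.90, 1.86 and 5.30 FPKM in OGD-TIA. *Cflar* had 17.8, 11.5, 12.7 and 13.1 FPKM in CONTROL-TIA and 20.9, 18.3, 11.4 and 22.8 FPKM in OGD-TIA. *Fadd* had 1.51, 1.59, 1.42 and 1.25 FPKM in CONTROL-TIA and 1.61, 1.83, 1.39 and 1.71 FPKM in OGD-TIA. All 3 overlapped between the groups, with log2 fold changes of 0.62, 0.38 and 0.17 and adjusted p values of 0.313 to 0.565. *Tradd* had 8.73, 11.5, 12.8 and 7.39 FPKM in CONTROL-TIA and 7.07, 9.12, 8.22 and 7.72 FPKM in OGD-TIA (log2 fold change -0.30, adjusted p = 0.390). *Bid* had 16.2, 21.2, 17.4 and 10.4 FPKM in CONTROL-TIA and 26.4, 19.99, 19.6 and 25.8 FPKM in OGD-TIA (log2 fold change 0.52, adjusted p = 0.245).

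**Figure D3:**
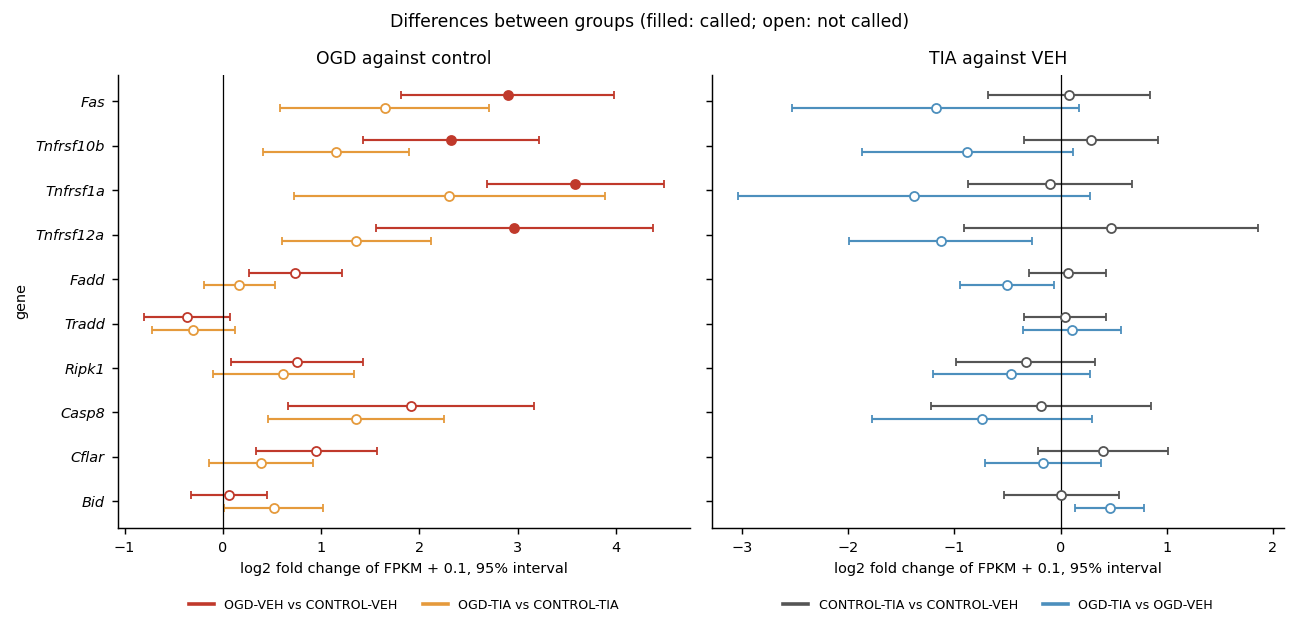
Log2 fold change of each gene with its 95% interval for OGD against control in the VEH and TIA arms (left) and for TIA against VEH without and with OGD (right); filled points were called. The 4 receptors are called in the VEH arm, from 2.32 to 3.59, and no gene is called in the other 3 comparisons.

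Averaged over both arms, with all 16 cultures in 1 fit, 9 of the 10 genes were tested, and the 4 receptors were called, all higher. Over all 16313 genes tested 4.80% were called (2.79% higher). *Casp8* was called, also higher, in the fit without a filter, where 843 of 35341 genes were called. The log2 fold changes were 2.27 for *Fas* (SE 0.35, adjusted p = 0.00118), 1.74 for *Tnfrsf10b* (SE 0.26, adjusted p = 0.00118), 2.95 for *Tnfrsf1a* (SE 0.43, adjusted p = 0.00100), 2.16 for *Tnfrsf12a* (SE 0.38, adjusted p = 0.00199) and 1.64 for *Casp8* (SE 0.33, adjusted p = 0.00795, in the fit without a filter, since its mean of 0.409 FPKM is under the minimum). *Cflar* (0.67), *Ripk1* (0.69) and *Fadd* (0.45) also had an adjusted p of 0.05 or less. With *Casp8* from the fit without a filter, this gives 8 of 10 genes higher by this criterion. Of all genes tested with the filter, 18.8% were higher by it. The 4 receptors and *Casp8* were called in each of the 16 fits that left out 1 culture. With a pseudocount of 1, *Casp8* had a log2 fold change of 0.53 and was not called.

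At least 1 isoform of each of the 4 receptors was also called by itself in this comparison. For *Fas-201* (327 codons) the log2 fold change was 2.28 (adjusted p = 0.00549), for *Tnfrsf10b-201* (381 codons) 1.87 (adjusted p = 0.00944), for *Tnfrsf12a-201* (129 codons) 2.17 (adjusted p = 0.00764) and for the full-length *Tnfrsf1a-201* 1.15 (adjusted p = 0.00678), against 1.97% of 53201 isoforms called. The shorter *Tnfrsf1a-203* and *Tnfrsf1a-202* were called as well, with 5.56 and 4.06. *Tnfrsf1a-205* (3.38, adjusted p = 0.0945) and *Tnfrsf12a-202* (1.68, adjusted p = 0.289) were tested and not called. No isoform of the other 6 genes was called, but those of *Casp8* were not tested, since each had a mean under 0.5 FPKM. The coding isoforms *Bid-201* (0.34) and *Cflar-205* (0.52) had an adjusted p of 0.0249 and 0.0302 with a change under 1 on the log2 scale.

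The effect of TIA was compared in cultures without and with OGD. Without OGD, the groups overlapped for all 10 genes (2.06% of all genes did not overlap), limma called 0 of 16170 genes tested (0%, with an unadjusted p under 0.05 for 621), and the log2 fold changes ran from -0.33 for *Ripk1* to 0.48 for *Tnfrsf12a*. The 95% interval was -0.69 to 0.84 for *Fas*, -0.34 to 0.92 for *Tnfrsf10b* and -0.91 to 1.86 for *Tnfrsf12a*, and the last of these includes a change of more than 1. After OGD, 8 of the 10 genes had a lower fitted level with TIA than with vehicle, and none was called, with 0 of 16351 genes called in the whole table (0%, unadjusted p under 0.05 for 1293). The median log2 fold change was -0.62 for the 10 genes and -0.05 for all genes tested. The share of all genes that were lower was not computed, so the 8 of 10 cannot be set against it. These comparisons share cultures with those above.

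In OGD-TIA vs. OGD-VEH the ratio of the mean FPKM was 0.459 for *Fas*, 0.523 for *Tnfrsf10b*, 0.479 for *Tnfrsf1a* and 0.436 for *Tnfrsf12a*. The groups overlapped for each of these receptors; OGD-VEH 9 was the lowest and OGD-TIA 16 the highest culture of its group for all 4. The log2 fold changes were -1.18 for *Fas* (95% interval -2.53 to 0.17), -0.88 for *Tnfrsf10b* (-1.88 to 0.12), -1.38 for *Tnfrsf1a* (-3.04 to 0.28) and -1.13 for *Tnfrsf12a* (-1.99 to -0.27), with an adjusted p of 0.551 in limma for all 4. When cultures far from their group counted for less (array quality weights), *Fas* (-1.53), *Tnfrsf10b* (-1.14) and *Tnfrsf12a* (-1.53) were called with adjusted p values of 0.0453 to 0.0487, against 2.50% of all genes. *Bid* went the other way, with every OGD-TIA culture (19.6 to 26.4 FPKM) above every OGD-VEH culture (15.2 to 18.1 FPKM), a log2 fold change of 0.46 and an adjusted p of 0.551; of all genes, 1.3% were higher without overlap. Weighted by length, the *Bid* groups overlapped (log2 fold change 0.13), and the coding *Bid-201* had means of 12.7 and 12.6 FPKM in OGD-VEH and OGD-TIA, against 2.36 and 9.06 FPKM for the retained intron transcript *Bid-205*.

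The difference between the arms in the effect of OGD was tested as an interaction. None of the 10 genes and 0 of 16313 genes in all (0%) were called by limma, with an unadjusted p under 0.05 for 988. With array quality weights 101 of the 16313 genes were called, so the lack of calls over all genes depends on the setting. The effect with TIA minus that with vehicle was -1.25 for *Fas* (95% interval -2.74 to 0.23), -1.17 for *Tnfrsf10b* (-2.30 to -0.04), -1.28 for *Tnfrsf1a* (-3.10 to 0.54) and -1.61 for *Tnfrsf12a* (-3.22 to 0.01), each with an adjusted p of 0.722. The unadjusted p was under 0.05 for 2 of the 10 genes, *Fadd* (-0.57) and *Tnfrsf10b*. The intervals of the 4 receptors include both a difference near 0 and one of more than 2 on the log2 scale, so that a call in the VEH arm and none in the TIA arm does not show that the arms differ.

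Beyond the 10 genes, 72 genes of the same pathway were read from 5 lists, of which 55 had a mean above the minimum of 0.5 FPKM. In the averaged comparison 2 of the 55 were called, both higher, and 14 had an adjusted p of 0.05 or less in the upward and 3 in the downward direction. Over all genes 4.80% were called and 18.8% were higher at an adjusted p of 0.05 or less. Of the 9 ligands, *Tnfsf12* (TWEAK) and *Eda* passed the filter in this comparison. *Fasl* had a mean of 0.443 FPKM over the 16 cultures, *Tnfsf10* (TRAIL) 0.00856 and *Tnf* 0.00394, with *Tnf* listed at 0 in 14 of 16 cultures. *Tnfsf12* had means of 1.199 ± 0.739 FPKM in CONTROL-VEH against 1.83 ± 1.07 in OGD-VEH (adjusted p = 0.399). *Eda*, the ectodysplasin ligand and the most abundant of the list, had 3.27 ± 0.421 and 1.72 ± 0.383 FPKM, with a log2 fold change of -0.91 (adjusted p = 0.0425).

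Of the 15 other TNF receptor superfamily members, 10 passed the filter and 1 was called. This was *Eda2r*, the ectodysplasin A2 receptor and a known p53 target, which had 3.82 ± 1.44 FPKM in CONTROL-VEH against 20.5 ± 9.44 in OGD-VEH (log2 fold change 2.33, SE 0.48, adjusted p = 0.0367) and rose by 1.70 in the averaged comparison (adjusted p = 0.00190). The median log2 fold change of the list there was 0.20, and that of all genes 0.08. *Tnfrsf21* (death receptor 6) was the most abundant and differed little, with 31.2 ± 2.66 FPKM in CONTROL-VEH against 32.4 ± 1.05 in OGD-VEH.

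None of the 21 tested genes of the TNF receptor complex and its ubiquitin enzymes was called in any comparison. In the averaged comparison 4 were higher and 1 lower at an adjusted p of 0.05 or less, each by at most 0.51 on the log2 scale, among them *Traf2* (0.51, adjusted p = 0.0140), the ubiquitin ligase adaptor at TNF receptor 1, and the deubiquitinase *Cyld* (-0.25, adjusted p = 0.00724). *Tax1bp1* had the highest mean of the list, 170 FPKM.

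Among 10 tested genes with a death domain or death effector domain, *Pidd1* was called. It encodes the scaffold of the PIDDosome, the platform on which caspase-2 is activated, and it had 3.58 ± 0.294 FPKM in CONTROL-VEH against 15.6 ± 3.87 in OGD-VEH (log2 fold change 2.07, SE 0.19, adjusted p = 0.0144). Its averaged log2 fold change was 1.69. *Pea15a*, which also binds Fadd, was the most abundant with 256 ± 29.6 and 358 ± 112 FPKM (adjusted p = 0.158). The 12 effectors downstream of caspase-8 all passed the filter and none was called. In the averaged comparison 4 were higher at an adjusted p of 0.05 or less, *Bax* (0.45), *Bak1* (0.43), *Apaf1* (0.46) and the antiapoptotic *Mcl1* (0.44). *Bax* was the most abundant, with 127 ± 15.3 FPKM in CONTROL-VEH against 193 ± 34.4 in OGD-VEH.

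**Figure D4:**
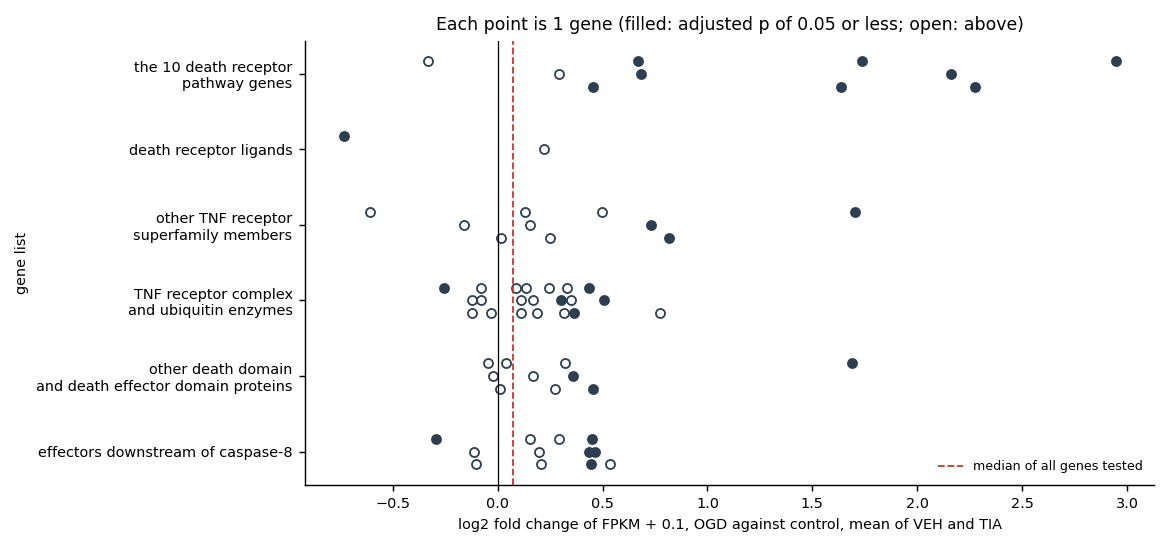
Log2 fold change for OGD against control, averaged over VEH and TIA, of the 10 genes and of the tested genes of 5 pathway lists; each point is 1 gene, filled at an adjusted p of 0.05 or less. The 4 receptors and *Casp8* lie from 1.64 to 2.95, and of the lists only *Eda2r* and *Pidd1*, at 1.70 and 1.69, lie beyond 1.

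The genes most like each member over the 16 cultures were taken as those with the highest Pearson r on the log2 scale among 16304 genes, as a description; the points share the OGD difference and the same libraries. For *Fas* these were *Esd* (0.98), *Naca* (0.98) and *Mnat1* (0.97). For *Tnfrsf10b* they were *Eda2r* (0.98), *Mcl1* (0.98) and *Cd109* (0.98), and *Cd109*, a membrane glycoprotein, had means of 0.723 FPKM in CONTROL-VEH against 8.23 in OGD-VEH. *Tnfrsf12a* was most like *Cdc42ep1* (0.98), *Igfbp2* (0.98) and *Gbp3* (0.97), and *Tnfrsf1a* most like *Pla2g4a* (0.96), which encodes cytosolic phospholipase A2, *Txn2* (0.95) and *Zfp768* (0.95).

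*Casp8* was most like *Gss* (0.95), *Pdia5* (0.95) and the adhesion receptor gene *Cd44* (0.94), and *Fadd* most like *Chsy1* (0.95), *Anxa2* (0.94) and *Pfn1* (0.94). *Ripk1* was most like *Rpl19*, *Sv2c* and *Rpl10-ps3* (0.94, 0.93 and 0.93) and *Cflar* most like *Cdc34*, *Unc50* and *Mrps28* (0.92, 0.91 and 0.89). The values for *Tradd* (*Gm44742*, *Slc22a15* and *Gm3696*, 0.90, 0.86 and 0.85) and *Bid* (*Gm32687*, *Gm17147* and *Gm7785*, 0.85, 0.75 and 0.74) were lower.

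Positions are given on GRCm38 as in GENCODE M21. *Fas* lies at chr19:34290666-34327772, *Tnfrsf10b* at chr14:69767472-69784411, *Tnfrsf1a* at chr6:125349362-125362484, *Tnfrsf12a* at chr17:23675445-23677468, *Fadd* at chr7:144577318-144582463, *Tradd* at chr8:105258286-105264609, *Ripk1* at chr13:34002363-34037147, *Casp8* at chr1:58795374-58847503, *Cflar* at chr1:58711508-58758884 and *Bid* at chr6:120891930-120916853. Overlapping genes on the opposite strand are annotated for *Fadd* (*Faddos*), *Ripk1* (*Serpinb6a* and *Gm17083*) and *Bid* (*Bcl2l13* and *Gm17812*), and on the same strand for *Fas* (*Gm27818*), *Ripk1* (*Gm17084*), *Casp8* (*Gm37760*) and *Bid* (*Gm44260*). The library kit keeps the strand, but the setting used in the estimation of isoforms is not given in the sources used here, so reads shared with these genes cannot be told apart.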

How the data were processed

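RNA-seq of 16 primary cortical neuron cultures was analysed, 4 in each of the 4 groups. Per the labels and the study's methods, the authors sequenced stranded libraries as 50-base single-end reads, aligned 18 to 23 M reads per sample with STAR to GRCm38, estimated isoform levels with eXpress, and deposited FPKM per isoform after TMM (trimmed mean of M-values) normalization; their DESeq2 test was not repeated, since the table holds no counts.

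The table has 135276 lines, of which 74 have no identifier and were left out. Total FPKM was 1046008 to 1228660 per culture. Depth estimated from the FPKM step of single reads was 19.9 to 26.0 M reads; it and the read numbers per gene are rough, since the effective length behind the FPKM is uncertain. FPKM were summed by gene symbol and log2(FPKM + 0.1) was tested in limma 3.58.1 (R 4.3.3) with an intensity trend, where the cultures of a fit averaged 0.5 FPKM or more. P-values were adjusted over all genes by Benjamini-Hochberg, and a call needed an adjusted p of 0.05 or less with a change of 1 or more on the log2 scale. Genes under the minimum were read from a fit without it. The scripts were tested on simulated data. Fold changes are on the log2(FPKM + 0.1) scale, which understates changes of low genes. Positions were taken from GENCODE M21, in which 99.89% of isoforms were found, and upstream sequences from RefSeq (GRCm38.p6). P-values measure the spread between cultures; the labels do not say whether these came from separate litters.

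The 10 genes and all lists were chosen with earlier results of these data known. The rule for named genes took all 10; of each list, genes called in any comparison (up to 4) and that with the highest mean; for each of the 10, the 3 genes with the highest Pearson r; and isoforms with a mean of at least 0.5 FPKM or called by themselves. Other list genes (ligands, and those named for an adjusted p of 0.05 or less without a call) were chosen after their values were seen. Alternatives were no filter, a minimum mean of 2 FPKM, robust empirical Bayes, pseudocounts of 0.01 and 1, array quality weights, 1 fit of all 16 cultures, median-ratio scaling, length weighting of isoforms, each isoform by itself, and leaving out each culture. The values of 1 listed gene are not reported here.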

Additional observations from a re-analysis of the deposited data

Results flagged for a closer look

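In 4 of the 40 sets of 4 cultures (10 genes in 4 groups), 1 culture stood far from the other 3, where chance gives about 1 in 20. *Tnfrsf1a* was highest in CONTROL-VEH 3 at 11.2 FPKM and in CONTROL-TIA 5 at 12.7 FPKM. In these cultures the short isoform *Tnfrsf1a-203* was listed at 5.68 and 6.68 FPKM, against at most 0.981 FPKM in the other 6 controls. *Tnfrsf10b* was highest in CONTROL-TIA 7 at 1.38 FPKM. *Tnfrsf12a* was highest in OGD-TIA 16 at 27.8 FPKM, the culture that was also highest of its group for 7 of the 10 genes.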

How the results depend on the processing

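Of the 10 genes, the number called in OGD-VEH vs. CONTROL-VEH was 4, but 1 without a filter on low values, 0 when each isoform was tested by itself, and 0 to 5 when 1 culture was left out. In OGD-TIA vs. OGD-VEH it was 0, and 3 with array quality weights. Counts over all genes in OGD-VEH vs. CONTROL-VEH were 668, against 36 without a filter, 75 for isoforms, 1073 weighted by length, 1390 with all 16 cultures in 1 fit and 1929 with array quality weights; in the averaged comparison they were 783, and 393 with a pseudocount of 1. With median-ratio scaling the calls went from 393 higher and 275 lower to 328 and 314, and the same 4 receptors were called.

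Directions that turned belonged to values that were not called. In OGD-VEH vs. CONTROL-VEH, *Bid* was -0.016 with median-ratio scaling and -0.014 to 0.21 when 1 culture was left out. In CONTROL-TIA vs. CONTROL-VEH, *Fas* (-0.050) and *Bid* (-0.0025) turned with array quality weights, *Tnfrsf1a* (0.048) and *Tradd* (-0.0035) with isoforms weighted by length, and *Casp8* (0.16) with a pseudocount of 0.01. Leaving out 1 culture there gave -0.086 to 0.33 for *Fas*, -0.41 to 0.12 for *Tnfrsf1a*, -0.15 to 0.76 for *Tnfrsf12a*, -0.084 to 0.18 for *Tradd*, -0.60 to 0.085 for *Casp8* and -0.13 to 0.21 for *Bid*. In OGD-TIA vs. OGD-VEH it gave -0.078 to 0.21 for *Tradd* and -0.28 to 0.044 for *Cflar*. The cause of these changes was not tested. No paired analysis was possible because the cultures are numbered 1 to 16 across the groups and no number is shared. Low read numbers limit *Casp8* and *Fas*.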
